A study of Homo sapiens with 4 samples.

Results

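The 43 genes described here encode the homologous recombination machinery, the Fanconi anaemia proteins and the DNA damage checkpoint. They were taken by name from the 42067 gene names of the series, where they have 87 of the 58146 transcript models, and each gene is represented by its model with the most reads over the 4 libraries. RNA came from Huh7, an established human hepatocellular carcinoma line, kept for 4 days in medium with 300 µM hydrogen peroxide (H2O2) or in mock medium, which was renewed daily in both groups. Each group has 2 libraries, named H and Q after their titles, and the sources used here do not say what the letters mean or whether the libraries come from separate cultures. P-values therefore measure the spread between these libraries, which may be technical. All 43 genes passed the filter on low values, which kept 21130 genes.

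Homologous recombination repairs a DNA break by copying the sister chromatid, and it works in S and G2 phase. The MRN complex senses the broken end, nucleases resect it, and the BRCA proteins prepare the resected strand for the search for the matching sequence. Fanconi proteins mark and process crosslinks between DNA strands and hand them to this pathway, while ATM and ATR are the kinases that report breaks and stalled replication forks and, through CHEK2 and CHEK1, delay the cell cycle. Many of these genes are transcribed mostly in cycling cells, which is background and not a result here. Bulk RNA cannot tell a change in the share of cycling cells from a change of RNA per cell.

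Most of the 43 genes were slightly higher in the H2O2 libraries. The fitted log2 fold change of H2O2 over mock was above 0 for 42 of the 43, against 47.9% of all genes tested, and its median was 0.30, a fold of 1.23, against −0.02 over all genes tested. Levels are CPM, read counts scaled to a common library size with TMM factors. In 28 genes both H2O2 libraries lay above both mock libraries, against 18.9% of all genes in that direction, and in 0 genes both lay below, against 21.8%. All 43 genes have an mRNA model, and all genes tested include others without one. Of the 14522 tested genes with an mRNA model, 52.2% had a fold change above 0, with a median of 0.02. In that set 21.1% lay above without overlap and 18.0% below. The largest differences were in the checkpoint kinase CHEK2, the nuclease EXO1, the recombination motor RAD54B and the fork remodeller FANCM.

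No gene of the 43 passed the test. By edgeR's quasi-likelihood test with Benjamini-Hochberg adjustment at 5%, 0 of 43 were called, and over all genes the share called was 0%. At an unadjusted p under 0.05 the count was 8 of 43, all higher in H2O2, against 3.07% of all genes in that direction. DESeq2 called 0.809% of all genes and 0 of the 43, with EXO1 nearest at an adjusted p of 0.117. The lowest adjusted p among the 43 in edgeR was 0.680 and the highest 0.996. With 2 libraries a group, the test has 2 residual degrees of freedom, to which edgeR added 3.03 prior degrees of freedom estimated over all genes. Leaving out 1 library moved the value of 29 of the 43 by over 1.5 times or turned its sign, and the other 14 include EXO1, FANCM, BARD1, BLM, BRCA1, RAD51C and WRN. Differences below are therefore values with their standard errors (SE), not calls.

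**Figure D1:**
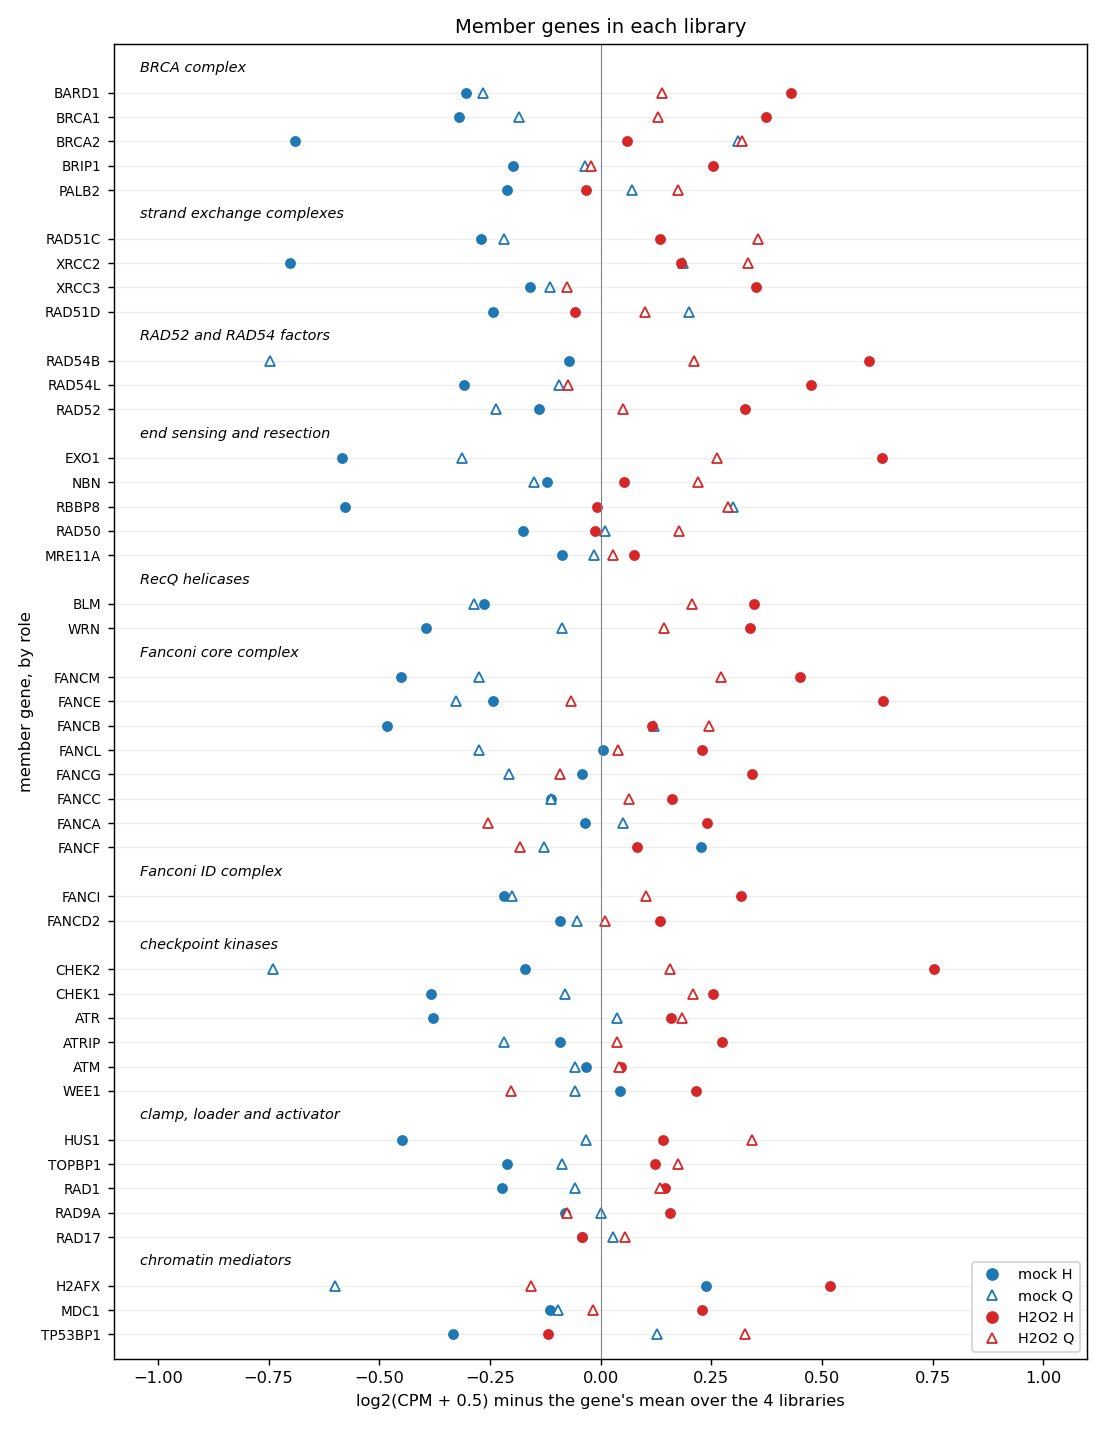
Each row is a gene, grouped by role, and each point a library; the x axis is log2(CPM + 0.5) minus the gene's mean over the 4 libraries, with mock in blue, H2O2 in red, circles for H and triangles for Q. In 28 of the 43 rows both red points lie to the right of both blue points, and in 29 the leftmost point is mock H.

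The libraries held 78126878 to 88409567 mapped read mates, with 87.4% to 91.7% of reads mapped. Counts of the 43 genes ran from 446 reads, for FANCB, to 20357, for FANCI. Hepatocyte-like markers (ALB, AFP, TTR, APOA1 and HNF4A) were all present, with a summed level of 9474 and 4152 CPM in mock H and Q and 12072 and 7874 CPM in H2O2 H and Q (without TMM scaling). ALB and AFP made up most of this sum, while HNF4A measured 397 and 255 CPM in mock and 196 and 218 CPM in H2O2, and TTR was lower in H2O2 within each letter. Marker sums of other cell types were low, with 14.2 to 28.4 CPM for 5 fibroblast, 2.20 to 3.38 for 4 endothelial and 4.02 to 6.47 for 5 blood genes. Of these 14 markers LUM was at 0 in H2O2 H and HBB at 0 in both H2O2 libraries, and none was at 0 in all libraries. The exons of 21 of the 43 genes overlap those of a neighbour by at least 200 bases in GENCODE release 29, in 17 genes on the opposite strand, and the use of strand in counting is not given in the sources used here. For those genes reads of the neighbour cannot be told apart. The largest overlaps were 7784 bases in RAD50 with AC116366.3 on the same strand and 5756 in XRCC3 with KLC1 on the opposite strand. TP53BP1 overlaps TUBGCP4 by 3732 bases and ATR a processed pseudogene by 2048, both on the opposite strand. Not all such genes are marked again below.

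The sequences just upstream of a start are shown for 6 genes: 4 of the 7 largest differences (CHEK2, EXO1, FANCM, BLM), FANCC, and FANCF, the one gene that was lower. FANCC differed by 0.24 without overlap, and of the 6 stretches its own alone holds an E2F site, a motif given below. The stretches are RefSeq promoter windows of build GRCh38.p14, the 150 bases before a start, 5′ to 3′ on the gene's strand. EXO1 and FANCC have more than 1 start in that table, of which 1 is shown. Capitals mark matches to 3 motifs known from cell cycle promoters, on either strand, and the EXO1 stretch holds none.
CHEK2 (chr22:28741821-28741970, minus strand): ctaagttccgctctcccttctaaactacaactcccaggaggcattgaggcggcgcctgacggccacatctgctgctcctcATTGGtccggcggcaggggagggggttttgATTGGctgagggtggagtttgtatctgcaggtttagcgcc
EXO1 (chr1:241848054-241848203, plus strand): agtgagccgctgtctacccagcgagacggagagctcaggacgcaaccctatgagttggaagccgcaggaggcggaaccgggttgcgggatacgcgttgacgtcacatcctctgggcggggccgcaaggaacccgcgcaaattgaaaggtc
FANCM (chr14:45135780-45135929, plus strand): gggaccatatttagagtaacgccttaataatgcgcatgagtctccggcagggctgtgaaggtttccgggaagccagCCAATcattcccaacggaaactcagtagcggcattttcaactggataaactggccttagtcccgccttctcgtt
BLM (chr15:90717196-90717345, plus strand): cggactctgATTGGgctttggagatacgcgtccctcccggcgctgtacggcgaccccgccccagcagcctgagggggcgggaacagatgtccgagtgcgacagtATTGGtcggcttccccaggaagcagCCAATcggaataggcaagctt
FANCC (chr9:95317710-95317859, minus strand): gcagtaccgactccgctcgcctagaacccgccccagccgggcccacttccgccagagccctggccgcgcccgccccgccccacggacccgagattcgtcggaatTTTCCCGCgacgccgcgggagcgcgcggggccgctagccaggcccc
FANCF (chr11:22625824-22625973, minus strand): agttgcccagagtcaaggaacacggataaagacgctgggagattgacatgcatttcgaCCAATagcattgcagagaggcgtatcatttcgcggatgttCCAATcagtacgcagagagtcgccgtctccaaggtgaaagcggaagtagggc
The motifs were the E2F site (TTTCCCGC, TTTCGCGC, TTTGCCGC or TTTGGCGC), the CCAAT box (CCAAT) and the cell cycle homology region, CHR (TTTGAA or TTCGAA, the latter its own reverse complement). They do not contain one another. Windows of 300 bases, from 250 before to 50 after a start, were found for 37 of the 43 genes by symbol. An E2F word stood in 6 of the 37 (16.2%), against 6.14% of tested genes in the same table. These were EXO1, FANCD2, TOPBP1, XRCC2, FANCC and FANCA, and in EXO1 and XRCC2 the word lies after the start. A CCAAT box stood in 19 of 37 (51.4%), against 42.9%, and a CHR word in 6 of 37 (16.2%), against 16.0%. Among the 23 genes with a window whose H2O2 libraries both lay above mock, 4 had the E2F word (17.4%), as did 2 of the other 14 (14.3%). CHEK2 and BLM, with large differences, carry more than 1 CCAAT box in the stretches shown, as does FANCF, which was lower. These are matches of letters, not sites shown to be bound.

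The BRCA complex acts on resected DNA. BRCA1, on chromosome 17, organises the response and pairs with BARD1 as a ubiquitin ligase. It measured 48.2 and 53.0 CPM in mock H and Q and 78.3 and 66.1 CPM in H2O2 H and Q, so the groups did not overlap and H2O2 H was highest (log2 fold change 0.51, SE 0.19, edgeR adjusted p = 0.680). BARD1, on chromosome 2, measured 10.6 and 10.9 CPM in mock and 18.0 and 14.6 CPM in H2O2 (0.60, SE 0.22). The pair thus differed in the same order of libraries, with both mock values close together. BRCA2, on chromosome 13, which acts on the resected strand, measured 13.9 and 28.4 CPM in mock and 23.8 and 28.5 CPM in H2O2 (0.31, SE 0.38). Here mock H alone was low and the groups overlapped; without that library the value was −0.12. PALB2, the bridge between BRCA1 and BRCA2, differed by 0.14 (SE 0.21), and the helicase BRIP1 by 0.24 (SE 0.20).

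RAD51C, RAD51D, XRCC2 and XRCC3 form complexes that assist strand exchange. RAD51C, on chromosome 17, measured 33.7 and 34.9 CPM in mock H and Q and 44.7 and 52.3 CPM in H2O2 H and Q (0.50, SE 0.18). Unlike most of the 43 it was highest in H2O2 Q. Its partner XRCC3, on chromosome 14, measured 20.9 and 21.6 CPM in mock and 30.0 and 22.2 CPM in H2O2 (0.30, SE 0.22), where H2O2 H stood apart and H2O2 Q lay close to mock, and the value was 0.064 without H2O2 H and 0.50 without H2O2 Q. Exons of XRCC3 overlap those of KLC1 on the other strand. XRCC2, on chromosome 7, measured 7.04 and 13.5 CPM in mock and 13.4 and 15.0 CPM in H2O2 (0.47, SE 0.36), with mock H alone low, as in BRCA2, and a value of 0.076 without that library and 1.01 without mock Q. RAD51D differed by 0.030 (SE 0.24).

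RAD54 proteins are motors that help a strand invade the sister duplex, and RAD52 anneals strands. All 3 genes had both H2O2 libraries above both mock libraries. RAD54B, on chromosome 8, measured 20.2 and 12.4 CPM in mock H and Q and 32.6 and 24.7 CPM in H2O2 H and Q (0.81, SE 0.31), with mock Q lowest. The value of RAD54B was 1.20 without mock H, 0.50 without mock Q and 0.55 with the counts of all models summed. RAD54L, on chromosome 1, measured 21.1 and 24.6 CPM in mock and 36.7 and 24.9 CPM in H2O2 (0.43, SE 0.26), and its H2O2 Q value barely exceeded mock Q, so that the value without H2O2 H was 0.13 and without H2O2 Q 0.69. For RAD52, on chromosome 12, the values were 16.9 and 15.8 CPM in mock and 23.5 and 19.3 CPM in H2O2 (0.39, SE 0.21). Without H2O2 H the fold change of RAD52 was 0.24 and without H2O2 Q 0.53. RAD54B shares exons with FSBP on its own strand, and RAD54L with LRRC41 on the other.

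EXO1, on chromosome 1, the exonuclease of long-range resection, measured 21.0 and 25.4 CPM in mock H and Q and 49.6 and 38.2 CPM in H2O2 H and Q. That is a log2 fold change of 0.92 (SE 0.23), with the lowest unadjusted p of the 43 (0.00976, edgeR adjusted p = 0.680). The MRN subunits differed little. NBN, MRE11A and RAD50 had values of 0.28 (SE 0.18), 0.10 (SE 0.17) and 0.17 (SE 0.19), and in RAD50 the groups overlapped. RBBP8, on chromosome 18, which starts resection, measured 18.5 and 34.5 CPM in mock and 27.8 and 34.2 CPM in H2O2 (0.23, SE 0.34). Its pattern repeats that of BRCA2 and XRCC2, a low mock H beside 3 higher libraries, and without mock H the value was −0.15.

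RecQ helicases dissolve recombination intermediates and protect forks. BLM, on chromosome 15, measured 31.2 and 30.7 CPM in mock H and Q and 48.0 and 43.5 CPM in H2O2 H and Q (0.56, SE 0.17). Libraries of 1 group lay close together in BLM, and the gap between groups was wider than either. WRN, on chromosome 8, measured 45.2 and 56.0 CPM in mock and 75.4 and 65.8 CPM in H2O2 (0.48, SE 0.20), again without overlap.

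The Fanconi core complex is a ubiquitin ligase assembled at crosslinks. FANCM, on chromosome 14, its DNA translocase, measured 11.7 and 13.3 CPM in mock H and Q and 22.3 and 19.7 CPM in H2O2 H and Q (0.75, SE 0.21). FANCE, on chromosome 6, which bridges the core to its substrate, measured 8.59 and 8.08 CPM in mock and 16.2 and 9.76 CPM in H2O2 (0.64, SE 0.31), so most of its difference came from H2O2 H, without which the value was 0.23 (0.97 without H2O2 Q). The core subunit FANCB, on chromosome X, measured 4.59 and 7.23 CPM in mock and 7.21 and 7.93 CPM in H2O2 (0.36, SE 0.30), with mock H alone low and a value of 0.067 without it (0.72 without mock Q). FANCG, on chromosome 9, measured 57.6 and 51.3 CPM in mock and 75.4 and 55.7 CPM in H2O2 (0.27, SE 0.22), and H2O2 Q lay between the mock values. Without H2O2 H the value of FANCG was 0.031 and without H2O2 Q 0.47. The catalytic subunit FANCL differed by 0.27 (SE 0.20) and FANCC by 0.24 (SE 0.21), both without overlap. FANCA differed by 0.0053 (SE 0.23) and FANCF by −0.11 (SE 0.23), and both overlapped. FANCA, whose exons overlap those of ZNF276 on the other strand, was highest in H2O2 H at 57.8 CPM and lowest in H2O2 Q at 40.9 CPM.

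FANCI and FANCD2 form the clamp that the core complex ubiquitylates. FANCI, on chromosome 15, was the most abundant of the 43 by reads, with 135 and 137 CPM in mock H and Q and 196 and 169 CPM in H2O2 H and Q (0.43, SE 0.19). FANCD2 had similar mock levels, 132 and 136 CPM, but 155 and 142 CPM in H2O2 (0.15, SE 0.18). Neither gene's groups overlapped. Reads of FANCD2 may be shared with its pseudogene FANCD2P2, and FANCI overlaps POLG on the other strand.

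CHEK2, on chromosome 22, the effector of ATM, measured 28.4 and 18.9 CPM in mock H and Q and 54.2 and 35.7 CPM in H2O2 H and Q, the largest log2 fold change of the 43 (0.93, SE 0.32, edgeR adjusted p = 0.680). Leaving out 1 library gave CHEK2 0.59 (without H2O2 H) to 1.25 (without mock H), and without H2O2 H or mock Q (0.66) its value was below that of EXO1 (0.72 and 1.06). Within each letter its H2O2 value exceeded mock by nearly the same log2 ratio, 0.92 and 0.90. GENCODE names 4 pseudogenes after CHEK2, and its exons overlap those of HSCB on the other strand, so its count is uncertain. CHEK1, on chromosome 11, the effector of ATR, measured 26.3 and 32.6 CPM in mock and 41.2 and 39.96 CPM in H2O2 (0.46, SE 0.20).

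ATR, on chromosome 3, the sensor kinase of stalled forks, measured 26.3 and 35.2 CPM in mock and 38.4 and 39.1 CPM in H2O2 (0.33, SE 0.22). The value of ATR was 0.14 without mock H and 0.56 without mock Q. ATRIP, the partner of ATR and also on chromosome 3, measured 17.6 and 16.1 CPM in mock and 22.9 and 19.3 CPM in H2O2 (0.32, SE 0.20). Without H2O2 H the value of ATRIP was 0.20 and without H2O2 Q 0.44. Exons of ATRIP overlap those of TREX1 on the same strand. ATM was nearly level, with 59.2 and 58.2 CPM in mock and 62.6 and 62.4 CPM in H2O2 (0.09, SE 0.17), although the groups did not overlap. WEE1, the kinase that holds CDK1 inactive, overlapped between groups (0.026, SE 0.21). The differences between kinases were not tested against each other.

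The RAD9A, HUS1 and RAD1 proteins form a ring-shaped clamp that RAD17 loads and that brings TOPBP1, the activator of ATR, to damaged DNA. HUS1, on chromosome 7, measured 11.8 and 15.9 CPM in mock H and Q and 18.0 and 20.7 CPM in H2O2 H and Q (0.49, SE 0.24). The value of HUS1 was 0.29 without mock H and 0.71 without mock Q. RAD1, on chromosome 5, measured 43.1 and 48.4 CPM in mock and 55.8 and 55.4 CPM in H2O2 (0.28, SE 0.17). TOPBP1, on chromosome 3, measured 105 and 114 CPM in mock and 132 and 137 CPM in H2O2 (0.30, SE 0.18). In these 3 genes both H2O2 libraries were above both mock libraries. RAD9A (0.085, SE 0.18) and the loader RAD17 (0.014, SE 0.17) overlapped between groups. RAD1 exons overlap those of BRIX1 on the other strand.

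The chromatin mediators gather repair factors around a break. H2AFX, on chromosome 11, which encodes the histone variant that ATM phosphorylates, measured 86.3 and 48.0 CPM in mock H and Q and 105 and 65.5 CPM in H2O2 H and Q (0.34, SE 0.38). In it the letters differed more than the groups, and the value was −0.036 without H2O2 H and −0.023 without mock Q. MDC1, the scaffold that reads the phosphorylated histone, differed by 0.22 (SE 0.18) without overlap. TP53BP1, which restrains resection, differed by 0.21 (SE 0.26) and measured 42.5 and 58.7 CPM in mock and 49.4 and 67.5 CPM in H2O2, so Q exceeded H in each group.

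Between genes, levels were compared per length, and their order depends on the measure used. Dividing the mean mock CPM by the length in kilobases of the matched GENCODE transcript gave 41.6 CPM per kilobase for H2AFX, 35.7 for RAD9A, 28.7 for FANCI and 26.3 for FANCD2. By this measure the lowest levels were 1.76 for FANCM, 1.81 for FANCC, 1.92 for BRCA2 and 1.96 for BARD1. In H2O2 the mean was 38.5 CPM per kilobase for FANCI and 2.95 for FANCM. Lengths of 43 of 43 genes came from the reference and not from the authors' annotation. The deposited FPKM, a level already scaled by length, gave another order. In mock H and Q it was 62.7 and 37.6 for H2AFX, 1397 and 1556 for FANCD2, and 1333 and 1461 for FANCI. FANCF had 7.29 and 6.10, below FANCM with 56.3 and 69.2. The reason was not tested, so the order of levels between genes is uncertain.

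The difference between groups was larger within letter H than within letter Q. In library pair H the log2 ratio was above 0 in 42 of the 43 genes and its median was 0.40. Over all 21130 genes it was above 0 in 10437, with a median of −0.0061. Pair Q had 37 such genes of the 43 and a median of 0.18, against 10392 and −0.0069 over all genes. Of the 43, 37 were higher in both pairs, against 33.9% of all genes. The ratio was larger within letter H in 34 of 43 genes, and in 50.8% of all genes. Mock H was the lowest of the 4 libraries in 29 genes (67.4%, against 27.0% of all genes) and H2O2 H the highest in 28 (65.1%, against 27.3%). In the 46 further pathway genes described below, mock Q was more often lowest, in 24 (52.2%, against 27.4% of all genes). Among those 46, mock H was lowest in 17 (37.0%) and H2O2 H highest in 25 (54.3%). With 1 library per group and letter, the difference between letters was not tested.

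**Figure D2:**
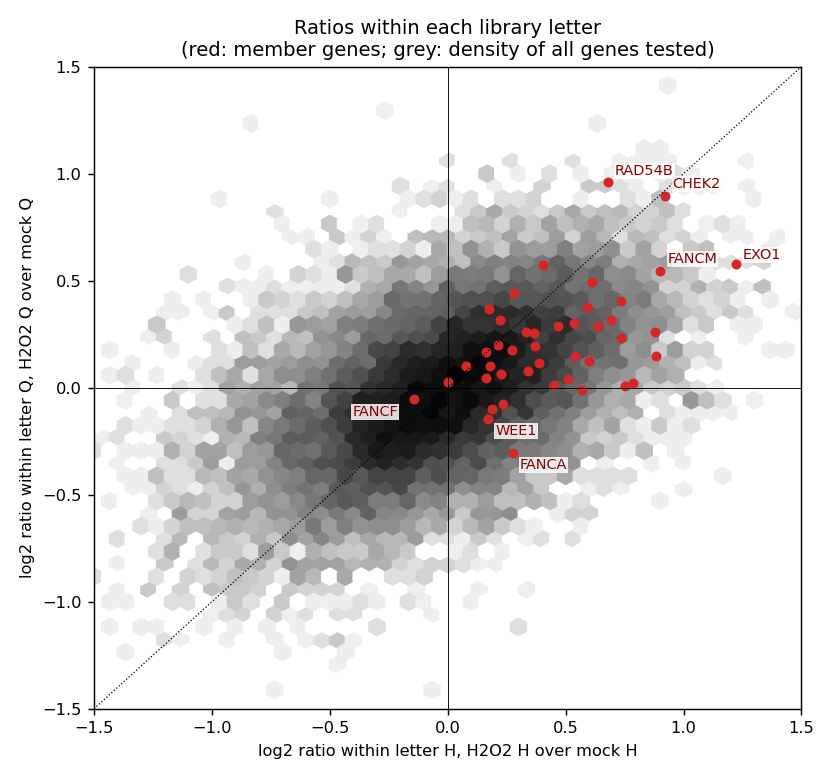
The x axis is the log2 ratio of H2O2 H over mock H and the y axis that of H2O2 Q over mock Q, both from CPM + 0.5; red points are the 43 genes, grey cells the density of all genes tested, and the dotted line marks equal ratios. Of the red points, 37 lie above 0 on both axes and 34 below the dotted line.

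A list of 46 further recombination, Fanconi and checkpoint genes had 35 higher and 11 lower in H2O2, beside 47.9% of all genes higher. This list and those of end joining and cycling genes below were chosen with earlier results of these data known. Their shares are therefore not independent support. Their median log2 fold change was 0.23. In 19 of the 46 both H2O2 libraries lay above both mock libraries and in 2 both below, beside 18.9% and 21.8% of all genes. By edgeR 0 of 46 were called, beside 0% of all genes, and by DESeq2 0 of 46, beside 0.809%. In edgeR 3 had an unadjusted p under 0.05, all higher in H2O2, beside 3.07% of all genes in that direction. The differences were 0.87 (SE 0.38) for MAD2L2, a subunit of the complex that blocks resection, and 0.86 (SE 0.28) for CDC25A, the phosphatase that CHEK1 marks for destruction. RAD51AP1, which promotes strand invasion, differed by 0.77 (SE 0.26), the Fanconi ubiquitin-conjugating enzyme UBE2T by 0.73 (SE 0.35), the fork protection subunit TIPIN by 0.72 (SE 0.20) and the helicase HELQ by 0.56 (SE 0.25).

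UBE2T had mock values of 38.3 and 36.1 CPM against 82.1 CPM in H2O2 H and 41.3 in H2O2 Q, so most of its difference came from H2O2 H, without which the value was 0.15 (1.15 without H2O2 Q). TIPIN, by contrast, had mock values of 14.4 and 17.7 CPM against 26.2 and 26.7 CPM with H2O2. The partner of TIPIN, TIMELESS, had a value of −0.28 (SE 0.18) with both H2O2 libraries below mock, and was named after its values were seen.

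End joining, which seals breaks without a template, had 11 of 12 genes higher, beside 47.9% of all genes, and a median of 0.27. Of the 12, 6 did not overlap upward and 0 downward, beside 18.9% and 21.8% of all genes. By edgeR 0 of 12 were called, beside 0% of all genes, and by DESeq2 0 of 12, beside 0.809%. An unadjusted p under 0.05 in edgeR was found for 0 of 12. The end-binding subunit XRCC5 differed by 0.45 (SE 0.22), the polymerase POLQ of microhomology-mediated joining by 0.40 (SE 0.27), the ligase LIG3 by 0.35 (SE 0.24), PARP1 by 0.32 (SE 0.23), XRCC4 by 0.31 (SE 0.26) and the nuclease DCLRE1C by 0.27 (SE 0.18).

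**Figure D3:**
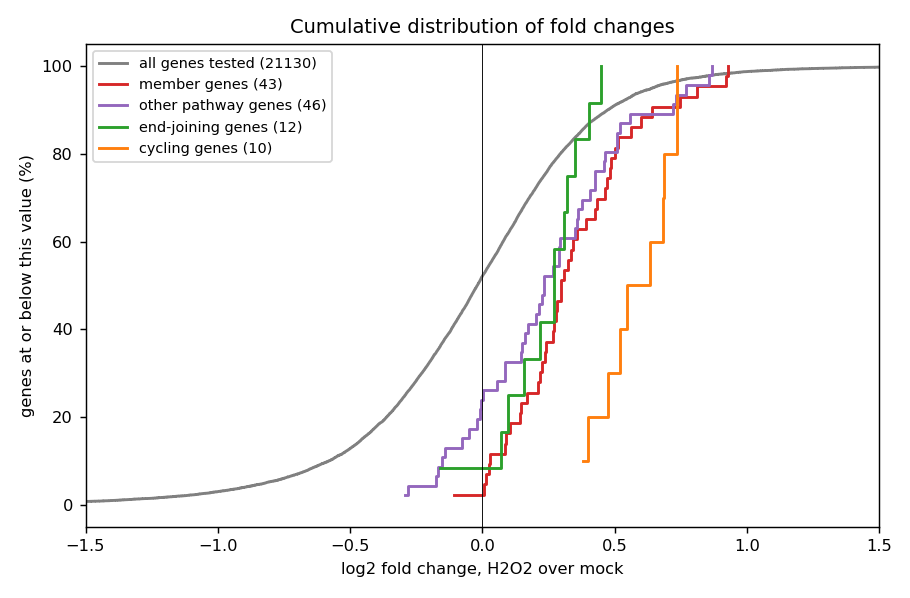
The x axis is the log2 fold change of H2O2 over mock and the y axis the percentage of genes at or below it, with a line each for all 21130 genes tested (the axis cuts off the extremes), the 43 genes, and the lists of 46, 12 and 10 genes. The line of the 43 genes crosses 50% at 0.30 and that of all genes at −0.02.

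A list of 10 genes of cycling cells, also chosen with earlier results of these data known, was set beside the 43. All 10 had a log2 fold change above 0, beside 47.9% of all genes, the median being 0.59. In 9 of 10 both H2O2 libraries lay above both mock libraries, beside 18.9% of all genes. By edgeR and DESeq2 0 of 10 were called, beside 0% and 0.809% of all genes. In edgeR 3 of 10 had an unadjusted p under 0.05, all higher in H2O2, beside 3.07% of all genes. The mitotic kinase CDK1 differed by 0.74 (SE 0.30), the helicase subunit MCM6 by 0.73 (SE 0.19), the reductase subunit RRM2 by 0.69 (SE 0.26), the topoisomerase TOP2A by 0.68 (SE 0.38), the cyclin CCNA2 by 0.63 (SE 0.32) and MCM2 by 0.55 (SE 0.20). Relative to each gene's mean over the 4 libraries, the median cycling gene stood at −0.18 and −0.42 in mock H and Q and at 0.53 and 0.05 in H2O2 H and Q. For the 43 genes these medians were −0.21, −0.09, 0.22 and 0.13. By these medians both lists were highest in H2O2 H, with mock Q lowest for cycling genes and mock H for the 43. Single genes did not all follow their list. Mock Q lay above mock H in 3 of the 10 cycling genes, MCM2, MCM6 and E2F1. The same held in 30 of the 43 genes, beside 11150 of all 21130. The part of cell cycling in the values of the 43 genes was not tested.

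**Figure D4:**
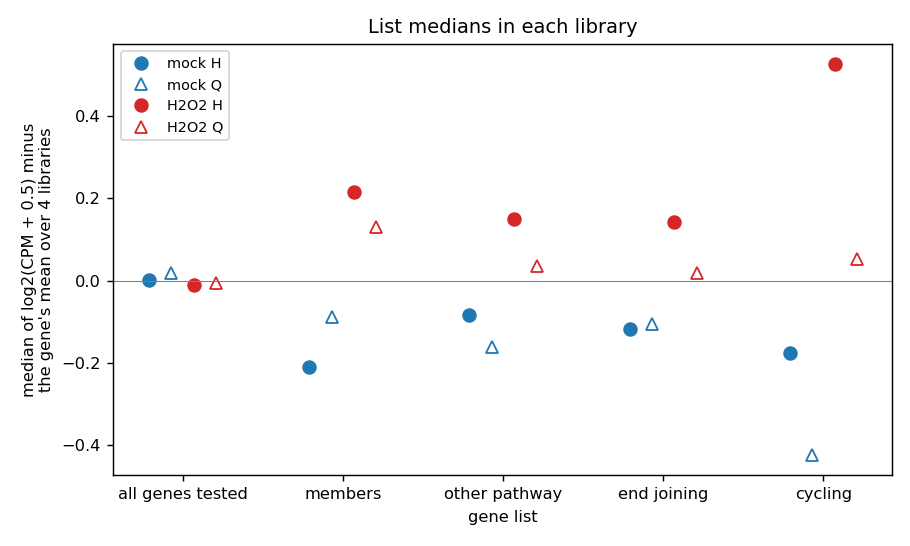
For each gene list on the x axis, points give the median over genes of log2(CPM + 0.5) minus the gene's mean over the 4 libraries, with mock in blue, H2O2 in red, circles for H and triangles for Q. The 43 genes range from −0.21 in mock H to 0.22 in H2O2 H and cycling genes from −0.42 in mock Q to 0.53 in H2O2 H, while all genes tested stay near 0.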

How the data were processed

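Tools named per the submitters' processing notes are TopHat 1.3.3, Bowtie 0.12.2, Cuffdiff and CASAVA, and the builds hg19, GRCh37 and mm8 appear there without roles. How reads were counted, with which annotation and strand setting, is not given in the sources used here. Files as deposited hold, per the file headers, a whole-number read count and an FPKM for each transcript model. The deposited counts total 103851326 to 113082498 a library with 1 model per gene, above the 78126878 to 88409567 mapped mates, and no source used here gives the reason. The deposited FPKM values served only for alternatives and beside the levels per length.

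For each gene the model with the most reads was kept, then genes with at least 0.5 CPM in at least 2 libraries. H2O2 was compared with mock over all 21130 genes with edgeR 4.0.16 (quasi-likelihood F test, two-sided, treatment the sole term, TMM factors 0.936 and 1.10 in mock and 0.918 and 1.06 in H2O2) with Benjamini-Hochberg adjustment, and tested on simulated data. SE is the unshrunk coefficient over the root of F. Ratios within a letter used CPM + 0.5.

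Alternatives were summed models, other size factors, an FPKM filter, no filter, DESeq2 1.42.0, limma 3.58.1 on log2(FPKM + 1), a letter block and leaving out each library. Named with all libraries' values are up to 20 members without overlap and the 6 largest others, by size of fold change, and up to 6 genes of each other list. Further members are given with their values to account for all 43. Members and lists were chosen with earlier results of these data known.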

Additional observations from a re-analysis of the deposited data

How the results depend on the processing

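Across all 4 omissions of a library and the 7 other alternatives, 0 of the 43 genes were called, at least 37 were higher in H2O2, and their median stayed between 0.24 and 0.37. Over all genes, 9 were called without the filter, 25 with the library letter as a replicate block, 171 with DESeq2, and 0 to 13 when 1 library was left out (13 without mock Q). With the replicate block 41 of the 43 were higher, with a median of 0.30 and a lowest edgeR adjusted p of 0.0804, for CHEK2. Deviations of H and Q from their group means correlated at 0.632 over genes between the groups, but the labels do not say that a letter marks paired samples. Single genes turned sign near 0: FANCA to −0.016 with the block and RAD17 to −0.030 with summed models. Leaving out a library moved the value of 29 of the 43 genes by over 1.5 times or turned its sign. Where the sign turned, the ranges were −0.12 to 0.90 for BRCA2, −0.15 to 0.74 for RBBP8, −0.036 to 0.83 for H2AFX, −0.028 to 0.45 for TP53BP1, −0.18 to 0.27 for RAD51D, −0.27 to 0.24 for FANCA, −0.28 to 0.087 for FANCF, −0.031 to 0.062 for RAD17, −0.036 to 0.20 for RAD9A and −0.20 to 0.23 for WEE1. With 3 libraries a lone sample makes separation easier: 1 to 3 of the 43 then lay below without overlap, beside 30.6% to 40.9% of all genes, and 23 to 32 of the 46 other pathway genes above, beside 29.3% to 37.8%. The median of those 46 was 0.15 (without H2O2 H) to 0.34 (without mock H), and 0.335 with limma. The cause of the other shifts was not tested. Each group has 2 libraries, and depth was not varied.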

Other observations

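Transcript models of 1 gene gave nearly the same difference, with an exception in RAD54B. Of the 43 genes 22 have more than 1 model, and in 19 of these the log2 ratios of group means lay within 0.1 of each other. The counts themselves can be almost equal, as in TP53BP1, whose 3 models had 4128, 4125 and 4116 reads in mock H. Such models may largely count the same reads, so their close ratios are not independent of each other. In RAD54B the models NM_012415 and NM_001205263 had ratios of 0.79 and 0.72, while NM_001205262 had −0.04. That model had mock values of 22.8 and 8.85 CPM against 16.7 and 14.1 CPM with H2O2, so the groups overlapped. FANCC spanned 0.21 to 0.39 over 3 models and FANCA 0.01 to 0.16 over 2. These genes were named after their values were seen.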
